A study of Homo sapiens with 12 samples.

Results

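The comparison is between the transcript responses of 2 established cancer cell lines to myricone C, which the series title calls a neolignan of Myristica fragrans, and its question is where those responses part. The lines were 23132/87, from a gastric adenocarcinoma, and SW48, from a colorectal adenocarcinoma, both wild type per the labels and grown in the same medium. Each line received either 10 µM myricone C or the vehicle, 0.1% DMSO, for 48 h. There were 3 biological replicates in each of the 4 groups, and thus 12 libraries. Each tumour type is represented by 1 line, so line and tissue of origin cannot be told apart. The members were all genes whose symbol is listed for both lines, 10264 of the 12360 genes listed for either. A further 806 genes were listed for 23132/87 alone and 1290 for SW48 alone, and these could not be compared. For each member, the change with myricone C on the log2(value + 1) scale in 23132/87 was subtracted from the change in SW48. This difference is called the term below: it is positive where SW48 rose more or fell less. Errors of changes and terms are limma's moderated standard errors (SE), and a result was called at an adjusted p under 0.05.

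As background, the title names stress of the endoplasmic reticulum (ER), apoptosis and inhibition of ROCK, a kinase that drives contraction of actin and myosin. Cells under ER stress slow translation and raise the transcription factor ATF4, whose targets include amino acid transporters, tRNA synthetases and the factor CHOP (gene DDIT3), while a parallel branch raises chaperones of the ER. Lines of different origin also differ in lineage factors, keratins and growth factor signalling.

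No library duplicated another. Summed listed values lay between 464037 and 536594 per library, and the read depth behind them is unknown. SW48 myricone C replicate 1 was the treated SW48 library closest to vehicle: its score on the second principal component was 12.8, and those of replicates 2 and 3 were 29 and 24.4. Genes of 7SL and small nuclear RNA made up 5.29% of that library and 0.0339% to 0.226% of the others. In 23132/87, myricone C replicate 1 was instead the treated library farthest from vehicle. Its score on the same component was 34, and those of replicates 2 and 3 were 23.2 and 21.3. The lowest summed value, 464037, was also that of 23132/87 myricone C replicate 1. Among marker genes, no gastric epithelial, leukocyte, fibroblast or endothelial marker was listed for both lines, and 5 intestinal markers were, among them CDX2. Median standard deviations between replicates on the log2 scale were 0.135 to 0.155 in the 4 groups.

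A difference between the lines was called for 1306 genes, or 12.7% of those tested (limma): the term was positive for 547 (5.33%) and negative for 759 (7.39%). Before adjustment, 2930 genes had a p under 0.05. Within 23132/87, 46.4% of the genes were called, 23.3% higher and 23.1% lower with myricone C, and within SW48 35% were called, 12.4% higher and 22.6% lower. The term is built from the same 12 libraries as these within-line changes. Positive terms were 41.9% of the calls as deposited, 54.5% after quantile normalization (1223 calls, 1050 of them shared) and 54.1% after median-centred scaling (1269 calls, 1130 shared), so the excess of negative terms turned with the scaling. Over all genes the median change was 0.01 in 23132/87 and -0.08 in SW48, with a median term of -0.09. A term of at least 1 in size was called for 371 genes. Without SW48 vehicle replicate 2 the number of called differences was 830. Listed values appear to be shares of each library, though their unit is not given in the sources used here. In bulk samples fewer cells of a type and less RNA per cell cannot be told apart.

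The 1306 genes fell into classes according to the calls within each line. Opposite directions were found for 126 genes, of which 44 rose in SW48 and fell in 23132/87 and 82 did the reverse (76 in all without SW48 vehicle replicate 2). The largest class, 955 genes, was called in a single line with a called difference: 658 in 23132/87, 421 higher and 237 lower, and 297 in SW48, 104 higher and 193 lower. Without SW48 vehicle replicate 2 this class held 621 genes. Same-direction changes of different degree made up 210 genes: the rise was larger in 23132/87 for 47 and in SW48 for 25, and the fall was larger in 23132/87 for 129 and in SW48 for 9. That class held 124 to 137 genes without 23132/87 vehicle replicate 1 (137) or 2 (124) or SW48 vehicle replicate 2 (129) or 3 (128). For the other 15 genes neither line was called. Most genes called in a single line carried no called difference: 1771 genes were called in 23132/87 and not in SW48, and 967 the other way round, without a called term. With each of the 12 libraries left out in turn, 702 of the 1306 called differences held every time. Among them were 125 of the 126 opposite genes, 200 of the 421 genes higher in 23132/87 alone and 1 of the 9 with a larger fall in SW48. These counts concern the call of the difference and not the class, which for opposite genes shrank to 76 as given above.

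**Figure D1:**
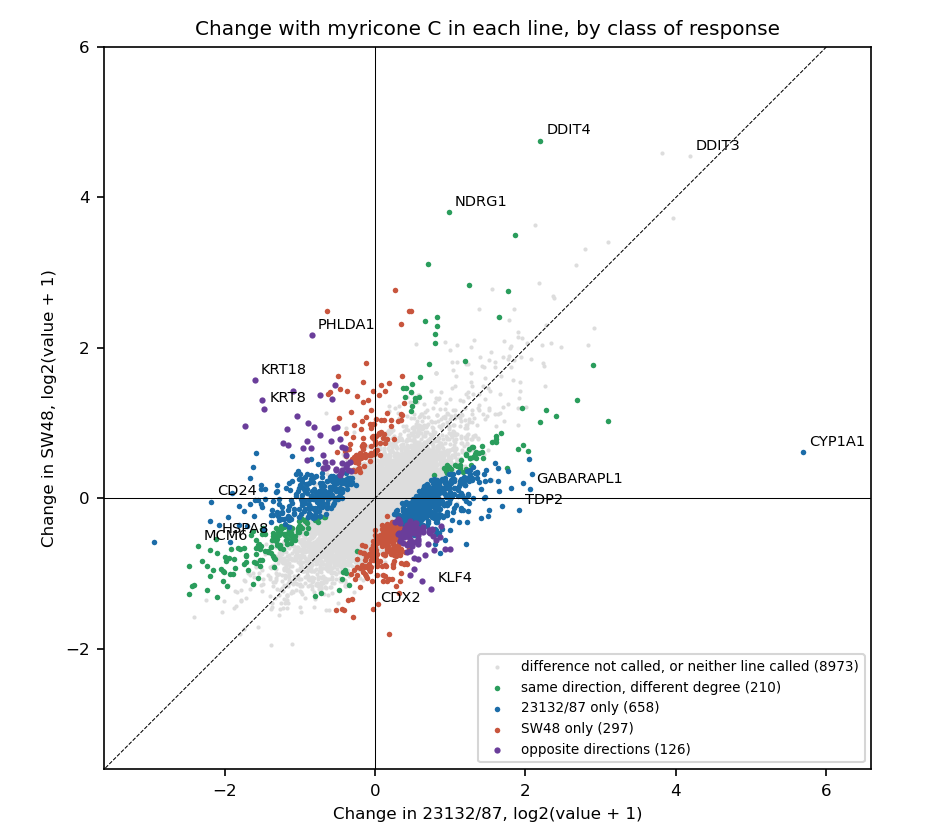
Change with myricone C in 23132/87 (x axis) against the change in SW48 (y axis), both as differences of mean log2(value + 1) over 3 libraries per group; each point is 1 of 10264 genes, coloured by class, and the dashed line marks equal change. Opposite responders (126) fill the upper left and lower right, and CYP1A1 lies farthest to the right, at 5.69 in 23132/87 and 0.61 in SW48.

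The most negative term was that of CYP1A1 (ENSG00000140465), a xenobiotic-metabolising cytochrome P450 induced by the aryl hydrocarbon receptor. Its values were 2.17, 2.83 and 4.11 with vehicle and 232, 192 and 190 with myricone C in 23132/87, and 2.32, 3.28 and 2.71 and then 8.42, 4.26 and 2.82 in SW48. The 23132/87 groups lay far apart, whereas the lowest treated SW48 library lay among the vehicle libraries. The change was 5.69 ± 0.25 in 23132/87 and 0.61 ± 0.25 in SW48, not called, for a term of -5.08 ± 0.36 (adjusted p = 4.76e-06). TDP2, a phosphodiesterase that removes topoisomerase 2 from DNA ends, went from 29.5 ± 2.77 to 114 ± 17.9 (SD, n = 3) in 23132/87 and from 24.4 ± 4.06 to 21.7 ± 0.826 in SW48, a term of -2.06 ± 0.19. UNC5B, a netrin receptor, rose in both lines but by 3.10 ± 0.24 against 1.03 ± 0.24. MDK, which encodes the growth factor midkine, fell in SW48, by a change of -1.81 ± 0.24, and was not called in 23132/87 (0.19 ± 0.24), a term of -2.00 ± 0.34.

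KRT18 (ENSG00000111057) had the most positive term. This gene and KRT8 encode the keratin pair of simple epithelia, which assemble with each other into intermediate filaments. In 23132/87, KRT18 stood at 3443, 3036 and 2668 with vehicle and at 787, 1144 and 1106 with myricone C. In SW48 it stood at 556, 235 and 553 with vehicle and at 1076, 1609 and 1104 with myricone C. Every treated library lay below the vehicle libraries in 23132/87 and above them in SW48. The changes were -1.60 ± 0.27 and 1.57 ± 0.27, and the term was 3.17 ± 0.38 (95% interval 2.36 to 3.99, adjusted p = 0.000273). KRT8 followed it, at 5319, 4541 and 3813 against 1302, 1793 and 1813 in 23132/87 and 843, 389.9 and 777 against 1354, 1864 and 1213 in SW48, with a term of 2.67 ± 0.35. KRT19, a further keratin of simple epithelia, changed by -1.23 ± 0.24 and 0.74 ± 0.24, also in opposite directions. KRT10, a keratin of differentiating epidermis listed at low values, went the other way, by 0.72 ± 0.14 and -0.45 ± 0.14. The fifth listed keratin, KRT80, was called in SW48 only (1.51 ± 0.23, against 0.07 ± 0.23). All 5 listed keratins thus had a called term, 4 positive and 1 negative, against 12.7% of all genes, and each of these calls held with every library left out in turn. KRT8 and KRT18 have many processed pseudogenes, and how reads matching several copies were counted is not given in the sources used here.

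PHLDA1, a pleckstrin-homology protein induced by growth factor signalling, was another opposite responder. It was at 47.5, 48.5 and 50.3 with vehicle and 27.2, 26.9 and 26.1 with myricone C in 23132/87. In SW48 the values were 45.2, 25.4 and 46.7 and then 119, 237 and 183, and in neither line did the groups overlap. The term was 3.01 ± 0.31 (adjusted p = 0.000122). The antisense transcript of the locus, PHLDA1-AS1, rose in SW48 by 2.50 ± 0.26 and was at -0.64 ± 0.26 in 23132/87, not called. The library kit marks strand, but the strand setting of the counting is not given in the sources used here, so the reads of this pair may not be cleanly separated.

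Among the other opposite genes that rose in SW48, the rule for naming gave LINC03061, a long noncoding RNA, and GPRC5A, a retinoic acid-induced orphan receptor. LINC03061 was at 10.7, 12.7 and 12.3 and then 4.39, 2.95 and 3.41 in 23132/87, and at 41, 38.8 and 53.1 and then 86.7, 152 and 101 in SW48 (term 2.81 ± 0.26). GPRC5A was at 350.3, 248 and 238 and then 130.3, 131 and 125 in 23132/87, and at 47.7, 29.5 and 33.6 and then 69.5, 144 and 96 in SW48 (term 2.51 ± 0.32). Vehicle and treated libraries were separate in both lines for both genes. For these 44 genes the median change was -0.65 in 23132/87 and 0.68 in SW48.

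The 82 genes that rose in 23132/87 and fell in SW48 moved less, with medians of 0.49 and -0.46. KLF4, a zinc finger factor of epithelial differentiation, was at 8.13, 9.97 and 8.47 with vehicle and 19.4, 14.4 and 13.1 with myricone C in 23132/87, and at 46.8, 53.1 and 41.5 and then 22.1, 21.1 and 16.7 in SW48. EPS8, an actin-capping adaptor of growth factor receptors, was at 34.9, 37.3 and 37.6 and then 53.2, 49.3 and 49.6 in 23132/87, and at 58.4, 70.9 and 61.5 and then 36.5, 28 and 28.5 in SW48. MTMR11, a myotubularin-related protein, was at 35, 35.9 and 37.3 and then 47.5, 51.3 and 58.1 in 23132/87, and at 7.31, 9.49 and 7.31 and then 4.38, 3.55 and 3.17 in SW48. None of these groups overlapped within a line. The terms were -1.95 ± 0.21, -1.48 ± 0.16 and -1.46 ± 0.18 (adjusted p = 0.00013, 0.00013 and 0.000348).

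**Figure D2:**
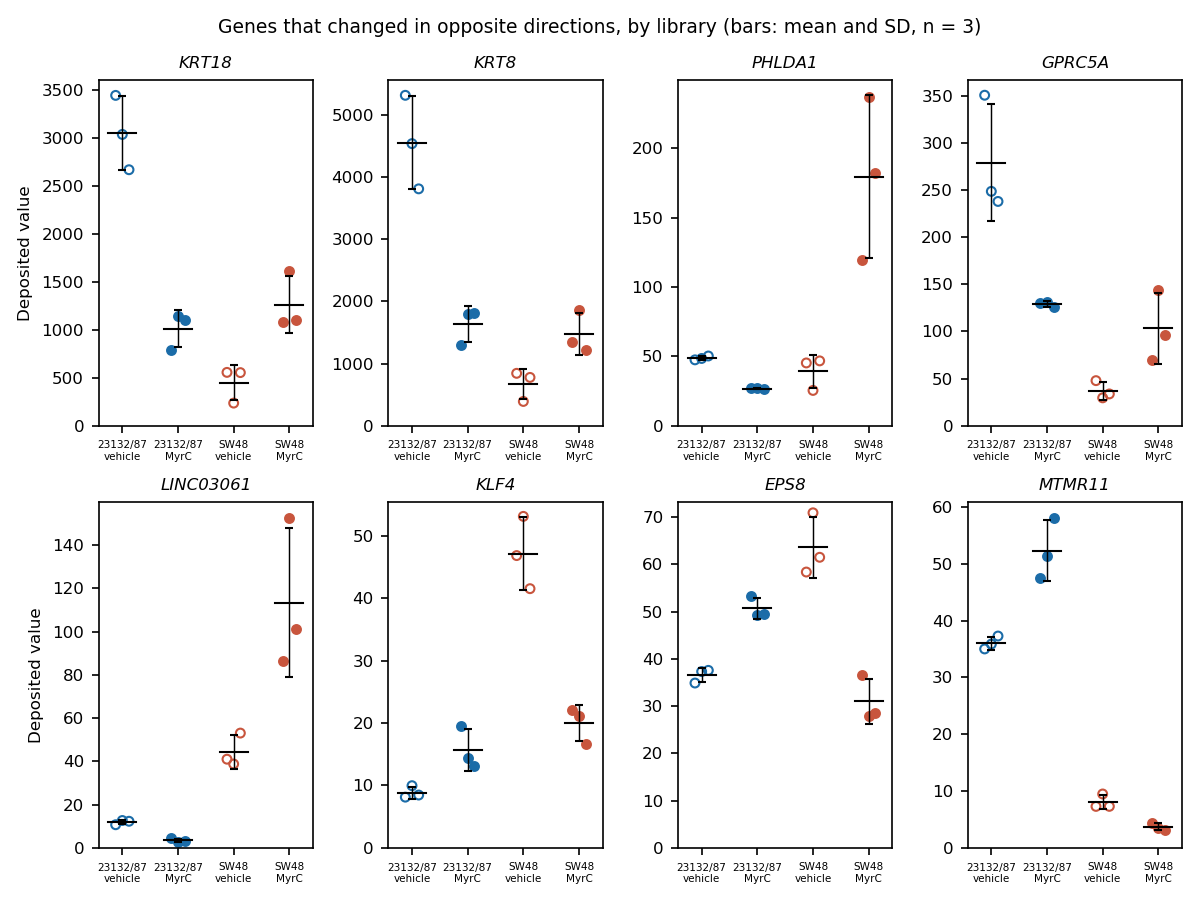
Deposited value in each library (y axis, linear, from 0) for 8 genes that changed in opposite directions, by line and treatment (MyrC, myricone C); open points are vehicle and filled points myricone C, and black bars give the mean and SD of 3 libraries. KRT18 fell from 3049 ± 388 to 1012 ± 196 in 23132/87 and rose from 448 ± 184 to 1263 ± 299.8 in SW48, while KLF4, EPS8 and MTMR11 show the reverse pattern.

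Of the genes called in 23132/87 only, GABARAPL1, an ATG8-family protein of autophagosomes, had the most negative term under the rule after CYP1A1 and TDP2. It was at 4.18, 3.94 and 4.10 with vehicle and 27.5, 18.3 and 16.2 with myricone C in 23132/87. In SW48 it was at 11.7, 22.5 and 12.8 and then 11.2, 17.4 and 22.4, and those groups overlapped. The change of 2.06 ± 0.25 in 23132/87 stood against 0.12 ± 0.25 in SW48 (95% interval -0.41 to 0.65), for a term of -1.94 ± 0.35. SNTB1, a syntrophin that links membrane proteins to the cytoskeleton, was at 2.59, 3.80 and 4.04 and then 16.4, 15.9 and 16.8 in 23132/87, and at 13.5, 16.2 and 16.3 and then 17.1, 19.1 and 17.4 in SW48. Its SW48 groups were separate but close, with a change of 0.21 ± 0.13 that was not called, against 1.97 ± 0.13 in 23132/87. RPL32P29, a processed pseudogene of a ribosomal protein gene, had a term of -1.81 ± 0.45, but its reads may be shared with its parent gene, so the value is uncertain.

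Falls in 23132/87 only were led by IGFL2, a secreted protein of the insulin growth factor-like family. Its values there were 55.2, 84.6 and 65.1 with vehicle and 6.14, 7.43 and 10.7 with myricone C, a change of -2.94 ± 0.25. The SW48 values were 18.3, 14.7 and 13.6 and then 12.2, 13.9 and 5.85, with overlapping groups and a change of -0.57 ± 0.25 that was not called. CD24, a surface sialoglycoprotein of epithelial cells, was at 20.2, 35.6 and 23.2 and then 3.91, 4.94 and 5.97 in 23132/87. Its SW48 values, 21.9, 24.4 and 25 and then 20.3, 25.4 and 23.6, overlapped, and the interval of that change, -0.43 to 0.34, excluded a fall of the size in 23132/87 (-2.18 ± 0.18). KLK6, a secreted serine protease, changed by -1.58 ± 0.29 in 23132/87 (6.10, 6.43 and 4.20 to 1.29, 1.12 and 1.13) and was at 0.60 ± 0.29 in SW48, not called. The terms of the 3 genes were 2.36 ± 0.36, 2.13 ± 0.25 and 2.17 ± 0.41.

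In SW48 only, CLCF1, a cytokine of the interleukin 6 family, went from 17.4, 7.88 and 12.2 with vehicle to 54.7, 159.8 and 74.5 with myricone C. In 23132/87 it was at 7.08, 6.47 and 5.00 and then 7.77, 6.95 and 8.04, a change of 0.27 ± 0.31 that was not called. The treated SW48 libraries differed widely among themselves but all exceeded the vehicle libraries, and the term was 2.50 ± 0.43 (adjusted p = 0.00227). BHLHE40, a transcriptional repressor of the clock and stress systems, was at 4.19, 3.85 and 3.42 and then 16.2, 34 and 31.8 in SW48. It stood at 17.9, 21.1 and 20.2 and then 30.0, 26 and 25.8 in 23132/87, where the groups were also separate and the change of 0.45 ± 0.20 was not called.

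Falls in SW48 only included CDX2, the homeobox factor that specifies intestinal epithelium. It was at 35.5, 38 and 28.7 with vehicle and 15.9, 10.3 and 9.45 with myricone C in SW48. The 23132/87 values were low throughout, at 3.94, 5.50 and 4.96 and then 4.04, 4.42 and 5.71, with overlapping groups. The changes were -1.47 ± 0.18 and -0.02 ± 0.18, for a term of -1.45 ± 0.26 (adjusted p = 0.00268). The 5 listed intestinal markers did not move together: 3 terms lay above 0, the median term was 0.01, and 2 terms were called, both negative (1 after quantile normalization). In SW48 the adhesion molecule CEACAM5 was called higher (0.72 ± 0.19) and CDX2 alone was called lower. The carbonic anhydrase CA2 was called lower in 23132/87 only (-1.78 ± 0.27), and its term was not called. CD99, a surface glycoprotein, was at 63.7, 80.0 and 57.5 and then 33.7, 24.6 and 33.8 in SW48, and TMEM50B, a transmembrane protein, at 11.6, 17.1 and 15.7 and then 7.17, 6.27 and 4.71. Their terms were -1.43 ± 0.29 and -1.44 ± 0.21, and neither was called in 23132/87 (0.33 and 0.28).

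**Figure D3:**
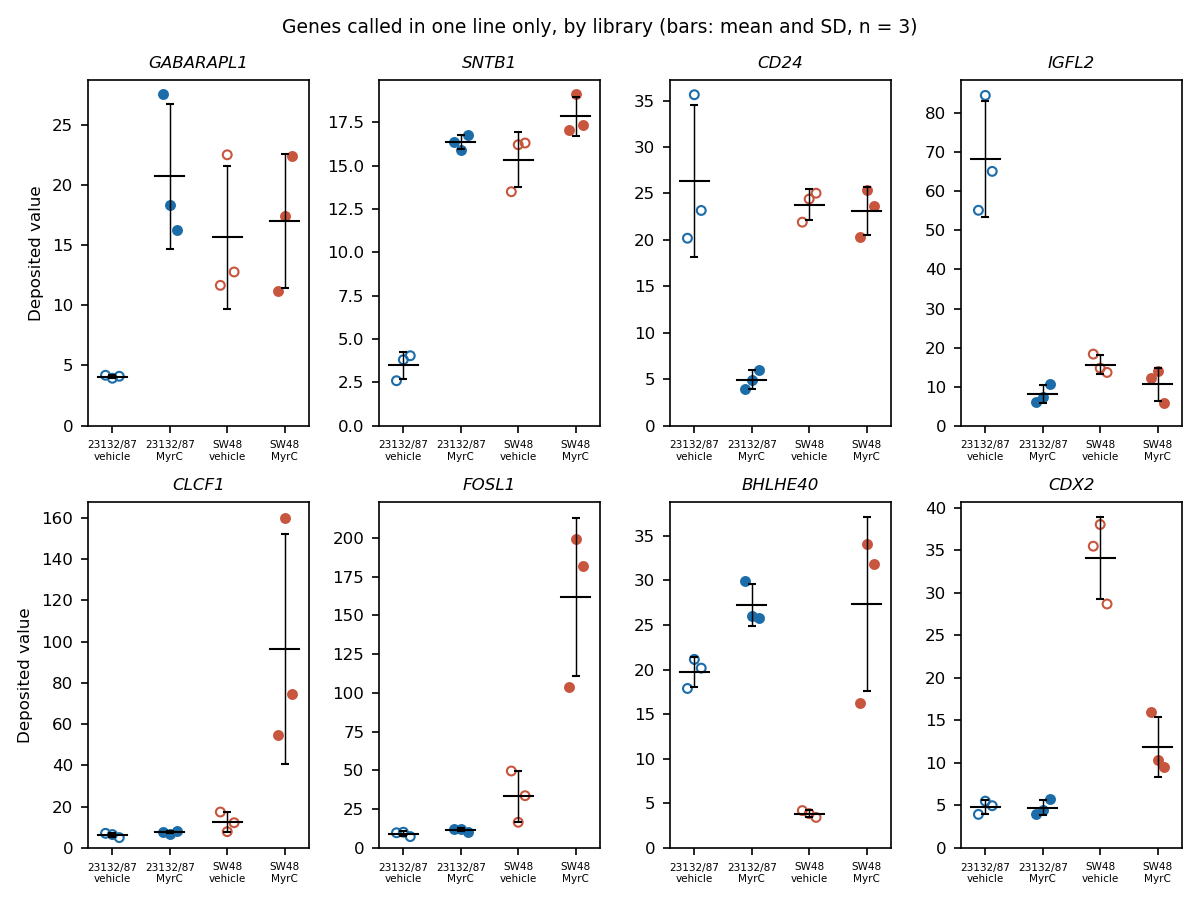
Deposited value in each library (y axis, linear, from 0) for 8 genes called in a single line, by line and treatment (MyrC, myricone C); open points are vehicle and filled points myricone C, and black bars give the mean and SD of 3 libraries. The top row shows genes called in 23132/87 and the bottom row genes called in SW48, where CLCF1 spreads most between treated libraries.

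Among genes that rose in both lines, RBCK1, a subunit of the linear ubiquitin ligase, rose more in 23132/87. It went from 39 ± 4.32 to 256 ± 34.5 in 23132/87 and from 32.5 ± 2.96 to 84.4 ± 24.3 (SD, n = 3) in SW48, changes of 2.68 ± 0.18 and 1.31 ± 0.18. The mitochondrial pyrimidine nucleotide carrier SLC25A36 (1.97 and 0.71) and the neutral amino acid transporter SLC1A4 (2.20 and 1.01) were likewise ahead in 23132/87. DDIT4, an inhibitor of mTORC1, rose more in SW48, from 12.2, 13.8 and 11.9 to 212, 440.3 and 528, than in 23132/87, from 89.3, 95.6 and 91 to 384, 442 and 453. Its changes were 4.75 ± 0.23 and 2.20 ± 0.23, and the term was 2.56 ± 0.32 (adjusted p = 0.000355). Vehicle levels of DDIT4 were lower in SW48, and treated levels of the 2 lines overlapped. The lines were deposited as 2 tables that may have been normalized separately, so levels across lines are set side by side without a test. PLAUR, the urokinase receptor, rose by 3.12 in SW48 and 0.71 in 23132/87. INSIG1, which retains the sterol sensor in the ER, rose by 2.36 and 0.66. NDRG1, a stress- and hypoxia-induced gene, had the largest term of this kind, at 2.83 ± 0.33, from changes of 3.81 ± 0.24 and 0.98 ± 0.24.

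The plot of list medians places the larger gene groups. Each list below is described by how many members were called and by its median, beside 12.7% called, a median term of -0.09 and median changes of 0.01 (23132/87) and -0.08 (SW48) over all genes. No test was made of a list as a whole. For lists described singly, numbers of called terms when libraries were left out singly are given where they moved by more than 1.5 times. Of the lists described, the median term changed sign under quantile normalization for the intestinal markers (0.01 and -0.07), and for none of the others under that or median-centred scaling. These scalings moved the number of called terms by more than 1.5 times in a few lists. After quantile normalization 7 tubulins, 22 genes of the cytosolic ribosome (20 negative), 17 ZNF-named genes, 2 genes of fatty acid synthesis and 2 cytosolic aminoacyl-tRNA synthetases had a called term. After median-centred scaling 4 genes of the ROCK pathway, 2 of MHC class I presentation and 1 cytosolic aminoacyl-tRNA synthetase did.

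**Figure D4:**
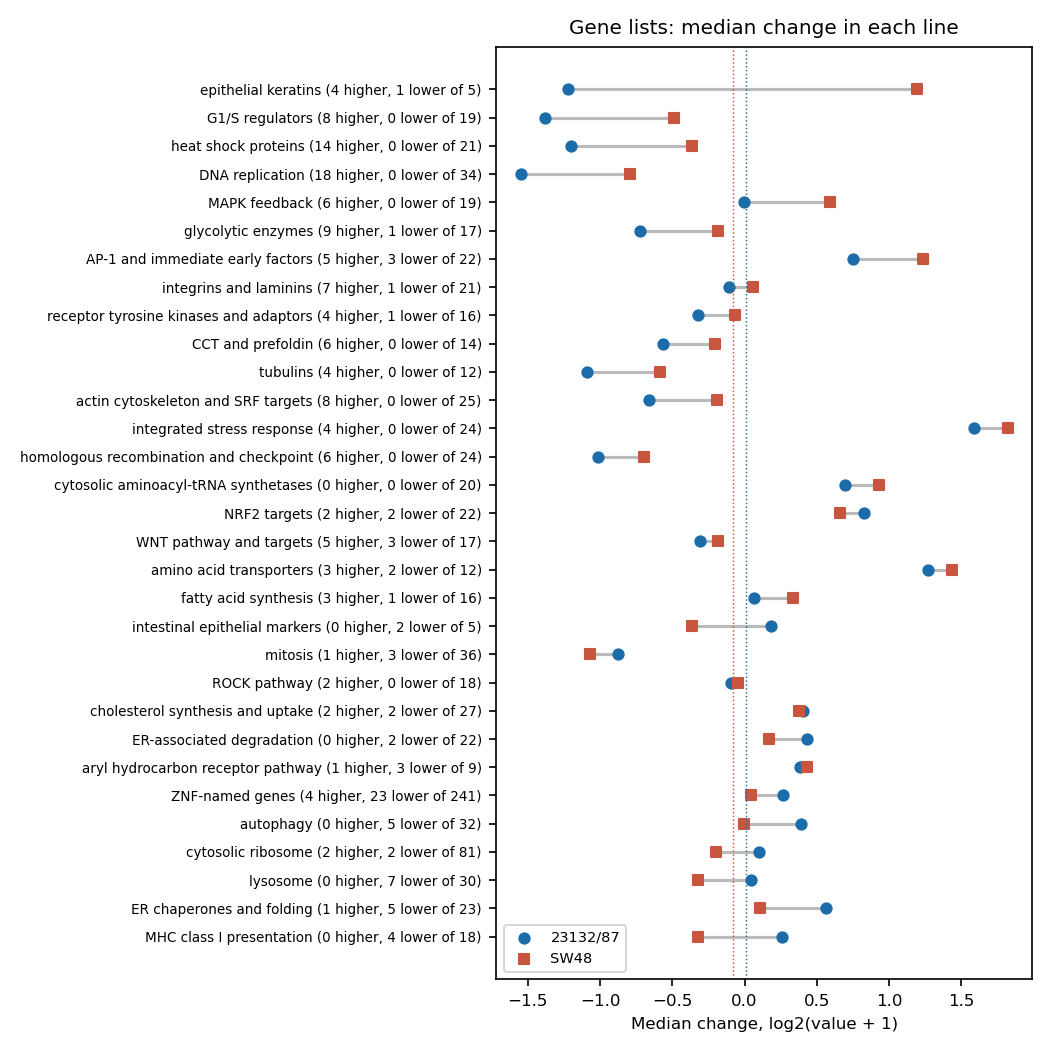
Median change with myricone C, as log2(value + 1), over the listed members of each gene list in 23132/87 (circles) and SW48 (squares), joined by a grey line; dotted lines mark the medians over all 10264 genes. Lists are ordered by median term, and labels give the number of members with a called positive (higher) or negative (lower) term; keratins stand at the top and MHC class I presentation at the bottom.

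DNA replication genes fell in both lines and fell further in 23132/87. All 34 listed members were called lower in 23132/87 and 31 in SW48, with median changes of -1.55 and -0.79. The term was called positive for 18 of the 34 and negative for none (15 to 21 positive with each library left out), with a median of 0.73, and 33 of 34 terms lay above 0. MCM6, a subunit of the replicative helicase, was at 39.9, 35.5 and 37.6 with vehicle and 5.70, 7.02 and 6.91 with myricone C in 23132/87. In SW48 the levels were 50.0, 39.7 and 55 and then 32.6, 28.6 and 30.5. The groups were separate in both lines, the changes were -2.36 ± 0.12 and -0.63 ± 0.12, and the term was 1.73 ± 0.18 (95% interval 1.35 to 2.11, adjusted p = 0.000101). The next largest terms were those of the helicase subunits MCM4 (1.47), MCM5 (1.27), MCM3 (1.21) and MCM2 (1.03), the replication factor MCM10 (1.37) and the helicase partner CDC45 (1.07). The single-strand binding subunit RPA3 was the member with a term below 0, at -0.39 ± 0.28 and not called.

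Regulators of the G1/S transition were next. Of 19 listed, 16 were called lower in 23132/87 and 12 in SW48, and 8 terms were called positive and none negative (8 or 9 positive with each library left out). The medians were -1.38 and -0.49, with a median term of 0.85. E2F1, the transcription factor that drives entry into S phase, was at 23.7, 23.2 and 18.4 and then 3.42, 4.09 and 4.37 in 23132/87. SW48 libraries gave 17.8, 13.2 and 16.4 and then 10.8, 7.93 and 9.39, again without overlap, for a term of 1.51 ± 0.21. Cyclin E1 (CCNE1) changed by -2.48 ± 0.16 and -0.90 ± 0.16. Cyclin D1 (CCND1) was called in 23132/87 only, at -1.19 ± 0.19 against 0.14 ± 0.19. MYBL2, UHRF1 and the phosphatase CDC25A had terms of 1.19, 1.26 and 1.16.

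Promoters of these genes are shown because an E2F site was in a larger share of promoters in the class with a larger fall in 23132/87 than among all genes tested. The window ran from 250 bases before to 50 bases after each gene's start in RefSeq, on GRCh38.p14, and held a sequence for 8252 of the 10264 genes. The letters searched on both strands were TTTGGCGC, TTTCCCGC and TTTGCCGC. At least 1 match was found in 17 of the 105 promoters of that class (16.2%), against 4.80% of the promoters of all genes tested, 2.85% of all 27305 in the table and 6.46% of promoters of genes that changed to the same degree. In the small class with a larger fall in SW48, 2 of 6 promoters (33.3%) had a match. In the replication list 13 of 28 promoters (46.4%) had a match, and in the G1/S list 6 of 16 (37.5%). The replication list shares 17 genes with the class with a larger fall in 23132/87, so these shares are not separate. The stretches below read 5′ to 3′ along the gene, upstream of the start, with matches in capitals (either strand).
MCM6 (chr2:135876506-135876615, minus strand): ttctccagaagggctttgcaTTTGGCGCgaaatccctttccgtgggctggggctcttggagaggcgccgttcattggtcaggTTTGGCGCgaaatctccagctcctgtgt
E2F1 (chr20:33686386-33686438, minus strand): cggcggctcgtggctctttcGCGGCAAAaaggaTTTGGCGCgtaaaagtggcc
CDC25A (chr3:48188434-48188481, minus strand): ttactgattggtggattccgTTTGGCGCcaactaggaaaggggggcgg
UHRF1 (chr19:4909467-4909500, plus strand): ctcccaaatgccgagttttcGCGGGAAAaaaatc
MCM6 and E2F1 each had 2 matches in this stretch and CDC25A and UHRF1 had 1 each. A match describes the letters and not binding.

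Mitotic genes fell in both lines without this order. Of 36 listed, 35 were called lower in each line, with medians of -0.87 in 23132/87 and -1.07 in SW48. The term was called for 4, or 11.1%, 1 positive and 3 negative (2 without 23132/87 myricone C replicates 1 or 2, 23132/87 vehicle replicates 1 or 2 or SW48 vehicle replicates 2 or 3), and 12 of the 36 had a 95% interval of the term within ±0.5. CCNB2, the mitotic cyclin B2, fell more in SW48, from 49, 61.2 and 44.7 to 22.8, 21.5 and 23.4, than in 23132/87, from 51.8, 54.4 and 54.2 to 41.8, 43.8 and 39.9, a term of -0.80 ± 0.16. ECT2, the exchange factor that starts cytokinesis, fell more in 23132/87 (-1.28 against -0.63). The other 2 genes that the rule names for a larger fall in SW48 were less firm. BCL7C, a chromatin remodeller subunit, had a term of -0.74 ± 0.22, and its call was lost without 9 of the 12 libraries taken singly, all but 23132/87 myricone C replicate 1 and SW48 myricone C replicates 1 and 3 (-0.88 to -0.55). MND1, a recombination cofactor, had a term of -0.63 ± 0.17, lost without any of 5 libraries: 23132/87 vehicle replicate 2, 23132/87 myricone C replicate 1, SW48 vehicle replicates 2 and 3, and SW48 myricone C replicate 2 (-0.72 to -0.53). In homologous recombination and checkpoint genes, 6 of 24 terms were called, all positive (1 to 3 without 23132/87 myricone C replicates 2 or 3, 23132/87 vehicle replicates 1 or 2, SW48 myricone C replicates 1 or 3 or SW48 vehicle replicate 2). The call that held throughout was CLSPN, the checkpoint mediator claspin, at -2.20 ± 0.14 and -1.03 ± 0.14.

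Heat shock proteins and their cochaperones, which fold and refold proteins and are induced by the factor HSF1, showed the highest share of called terms among lists of more than 5 members. The 21 listed genes were mostly cytosolic chaperones but included the factors HSF1 and HSF2 and the ER protein SERPINH1. Of these, 17 were called lower in 23132/87 and 10 in SW48, and 1 was called higher in 23132/87 and none in SW48. The term was called for 14 (66.7%), all positive (11 to 14 with each library left out), with a median of 0.76 and median changes of -1.20 and -0.37. HSPA8, the constitutive Hsc70, was at 1139, 1239 and 1169 with vehicle and 238, 295 and 284 with myricone C in 23132/87. In SW48 it was at 1072, 962 and 1286 and then 828, 809 and 644. The groups were separate in both lines, and the term was 1.58 ± 0.19 (95% interval 1.18 to 1.98, adjusted p = 0.00024). HSP90AA1, the inducible Hsp90, changed by -1.82 ± 0.13 in 23132/87 and by -0.66 ± 0.13 in SW48. Its relative HSP90AB1 was called in 23132/87 only, at 952, 976 and 956 and then 474, 481 and 472. The SW48 values of HSP90AB1 were 885, 808 and 988 and then 816, 831 and 771. The co-chaperones FKBP4 (1.19), STIP1 (0.89) and AHSA1 (0.73), the Hsp110 protein HSPH1 (1.10) and the J-domain proteins DNAJB1 (0.93) and DNAJA1 (0.76) had called positive terms as well. HSPA1A and HSPA1B, near-identical copies between which reads can be shared, had terms of 1.34 and 1.19. The factor itself, HSF1, was at 0.37 and 0.22, with no called term.

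A heat shock element, here 3 alternating units of GAA and TTC with 2 bases between units, was found in 5 of 19 promoters of this list (26.3%), against 0.279% of the genes tested and 0.487% of all in the RefSeq table. Both strands and the same window were searched. A member with a called term and one without are shown, with matches in capitals.
HSPA8 (chr11:123062159-123062386, minus strand): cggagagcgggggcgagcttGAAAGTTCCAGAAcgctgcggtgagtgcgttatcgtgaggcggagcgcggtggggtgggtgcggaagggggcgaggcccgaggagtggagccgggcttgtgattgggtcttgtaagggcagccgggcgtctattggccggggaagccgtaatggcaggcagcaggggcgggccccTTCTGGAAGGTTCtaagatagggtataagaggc
SERPINH1 (chr11:75562157-75562209, plus strand): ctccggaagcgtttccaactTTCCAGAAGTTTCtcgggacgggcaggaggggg
HSPA8 had 2 matches in this stretch. SERPINH1, which encodes a collagen chaperone of the ER, had 1, and its term was -0.14 ± 0.28 (95% interval -0.74 to 0.46, not called), from 44 ± 1.65 to 30.9 ± 3.69 in SW48 and 9.45 ± 3.39 to 6.89 ± 1.33 in 23132/87 (SD, n = 3).

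**Figure D5:**
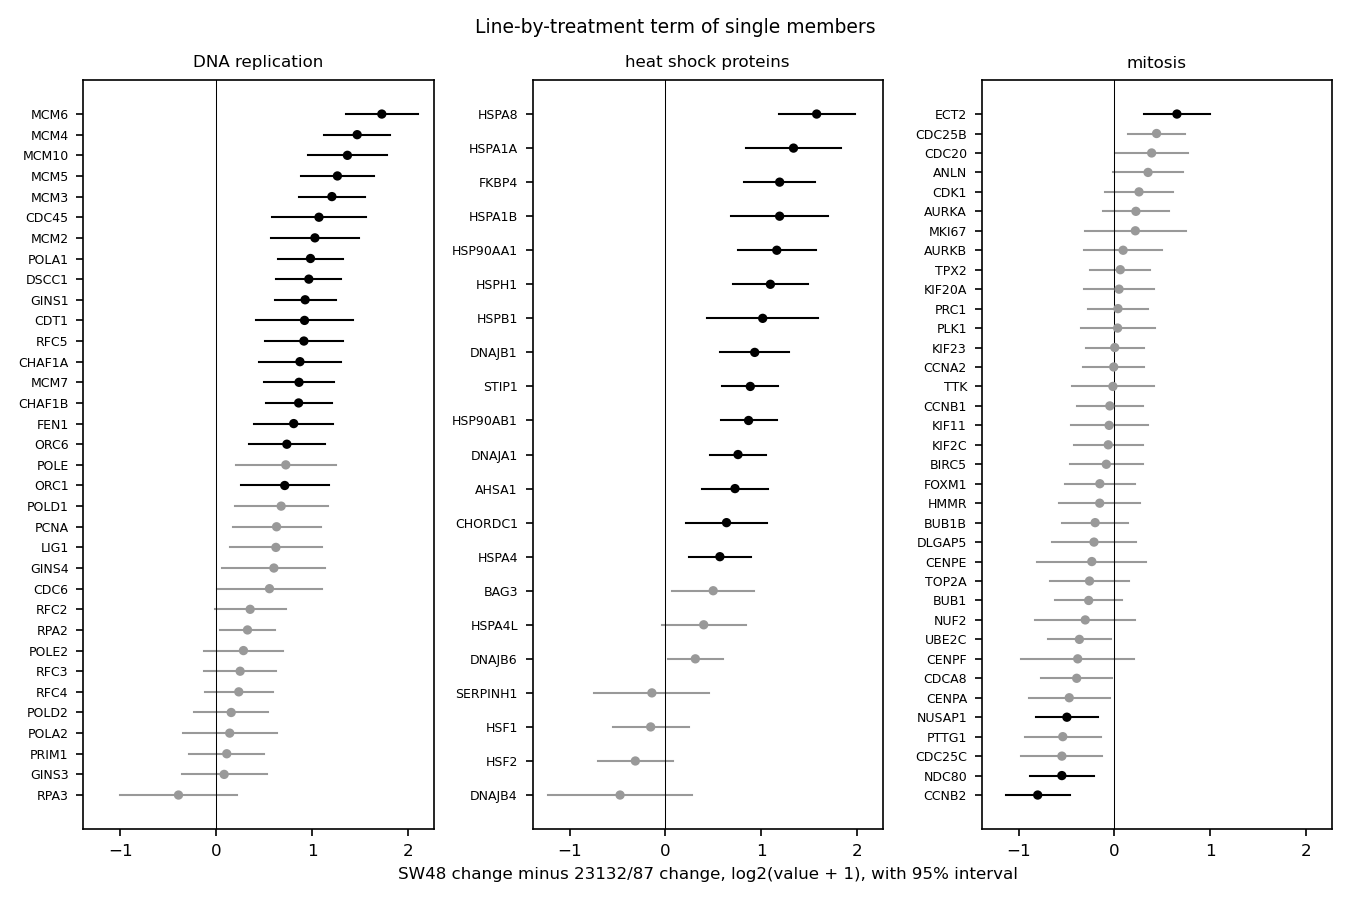
Line-by-treatment term (x axis, SW48 change minus 23132/87 change in log2(value + 1)) of each listed member of 3 gene lists, with its 95% interval; black marks a called term and grey one that was not called. Called terms lie to the right of 0 in DNA replication (18 of 34) and heat shock proteins (14 of 21), and mitosis genes scatter about 0.

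Subunits of CCT, the ring-shaped chaperonin that folds actin and tubulin, leaned the same way. They were listed together with prefoldin, which hands these proteins to CCT. Of the 14 genes, 9 were called lower in 23132/87 and 5 in SW48. The 8 CCT subunits gave 8 of the calls in 23132/87, 2 of those in SW48 and all 6 called terms, which were positive. No term of the 6 prefoldin subunits was called. CCT2 went from 160, 162 and 174 to 85.8, 87.9 and 84.5 in 23132/87, with no overlap. The SW48 values were 133, 117 and 147 and then 112, 118 and 130.2, where the groups overlapped. CCT5 behaved alike, with a term of 0.77 ± 0.16 against 0.79 ± 0.14 for CCT2. Among tubulins, the substrates of this chaperonin, 10 of 12 were called lower in 23132/87 and 9 in SW48, and 4 terms were called positive and none negative (2 without 23132/87 myricone C replicate 1, 23132/87 vehicle replicate 2, SW48 myricone C replicate 2 or SW48 vehicle replicates 2 or 3). Reads of tubulin and actin genes can be shared with near-identical copies, so their values are uncertain. The gamma-tubulin gene TUBG1 had a term of 0.80 ± 0.16. TUBA4A had a term of 0.71 ± 0.21, but that call was lost without 9 of the 12 libraries taken singly, all but 23132/87 vehicle replicate 1 and SW48 vehicle replicate 1 and myricone C replicate 1 (0.53 to 0.85).

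Genes of the actin cytoskeleton and targets of SRF, the actin-sensing transcription factor, were called lower for 18 of 25 in 23132/87 and 12 of 25 in SW48. Their median changes were -0.66 and -0.19, and 8 terms were called positive and none negative (4 to 5 without 23132/87 myricone C replicate 2, 23132/87 vehicle replicates 1 or 2, SW48 myricone C replicate 3 or SW48 vehicle replicates 2 or 3). ACTG1, which encodes gamma-actin, was at 1319, 1257 and 986 and then 444, 685 and 674 in 23132/87, and at 1476, 1005 and 1224 and then 1288, 1424 and 1413 in SW48. The SW48 groups overlapped, and the term was 1.17 ± 0.25 (adjusted p = 0.00754). MYH9, the heavy chain of non-muscle myosin, changed by -0.78 ± 0.12 and 0.01 ± 0.12, and the tropomyosin TPM4 by -0.57 ± 0.11 and 0.12 ± 0.11. TAGLN, an actin-binding SRF target, had a term of 1.10 ± 0.31 that lost its call without 8 of the 12 libraries taken singly, all but 23132/87 vehicle replicates 2 and 3 and myricone C replicate 3, and SW48 myricone C replicate 2 (0.82 to 1.26). A CArG box, the letters CC and GG with 6 bases of A or T between, was found in 6 of 22 promoters of the list (27.3%), against 0.957% of the genes tested and 1.29% of all in the RefSeq table. The 2 shown belong to genes with a called term, with the match in capitals.
ACTG1 (chr17:81512864-81512913, minus strand): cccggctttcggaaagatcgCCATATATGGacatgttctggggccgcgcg
TPM4 (chr19:16067345-16067394, plus strand): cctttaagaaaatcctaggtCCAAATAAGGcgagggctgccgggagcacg

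No difference between the lines was called for the kinases of the series title. ROCK1 was at 2.13, 2.46 and 2.78 and then 4.16, 3.44 and 2.86 in 23132/87, and at 9.96, 11.5 and 11.6 and then 12.8, 13 and 13.3 in SW48. Its term was -0.14 ± 0.18 (95% interval -0.53 to 0.25, adjusted p = 0.645), and that of ROCK2 was -0.36 ± 0.22 (-0.83 to 0.11, adjusted p = 0.298). In a list of 18 genes of the ROCK pathway 2 terms were called, both positive (1 without 23132/87 vehicle replicate 1 or SW48 myricone C replicate 2). They were those of the guanine nucleotide exchange factors ARHGEF1, at -0.33 ± 0.15 and 0.73 ± 0.15, and ARHGEF2, at 1.65 ± 0.14 and 2.41 ± 0.14. The ARHGEF2 call was lost without 23132/87 vehicle replicate 1 or SW48 myricone C replicate 2, with terms of 0.62 to 0.93 over the libraries left out.

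Of 17 glycolytic enzymes, 13 were called lower in 23132/87 and 5 in SW48, with medians of -0.72 and -0.19. The term was called positive for 9 and negative for 1, which made 58.8% of the list (4 to 6 without 23132/87 myricone C replicate 2, 23132/87 vehicle replicates 2 or 3 or SW48 vehicle replicate 2). PKM, the pyruvate kinase of proliferating cells, was at 1057, 1285 and 1139 and then 392, 484 and 545 in 23132/87, and at 1115, 726 and 989 and then 1006, 726 and 744 in SW48. Its SW48 groups overlapped, and the term was 1.11 ± 0.24. The neuronal-type enolase ENO2 had the next largest term (0.91 ± 0.17), and that of phosphoglycerate kinase PGK1 (0.64 ± 0.15) was also called.

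Feedback genes of MAPK signalling, which growth factor pathways induce and which dampen them in turn, leaned toward SW48. Of 19 listed, 12 were called higher in SW48 and none lower, whereas 7 were called higher and 4 lower in 23132/87. The term was called for 6, all positive, with a median of 0.57 (2 to 3 without 23132/87 myricone C replicates 1 or 3, 23132/87 vehicle replicates 1 or 2, SW48 myricone C replicates 2 or 3 or SW48 vehicle replicate 2). The phosphatase DUSP6, which switches off ERK, was at 16.9, 17.1 and 20.2 and then 8.95, 8.20 and 7.93 in 23132/87. In SW48 the levels were 36, 23.5 and 29.1 and then 30.9, 43.5 and 39.9, with overlap, and the term was 1.38 ± 0.22. ERRFI1, an inhibitor of the EGF receptor, rose in both lines, by 1.85 and 3.50. Its term of 1.65 ± 0.44 lost the call without 23132/87 vehicle replicate 1 or SW48 vehicle replicate 2, myricone C replicate 2 or myricone C replicate 3 (1.33 to 2.15 over all libraries left out).

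AP-1 and other immediate early factors, which the same signalling induces, had 5 positive and 3 negative called terms among 22 (5 without 23132/87 myricone C replicate 3, 23132/87 vehicle replicates 1 or 2, SW48 myricone C replicate 2 or SW48 vehicle replicate 2, and 14 without SW48 myricone C replicate 1). FOSL1, an AP-1 subunit, was called in SW48 only, from 49.6, 16.5 and 33.7 to 104, 199 and 182. It was at 9.77, 10.1 and 7.31 and then 12.3, 12.4 and 10.5 in 23132/87, where the groups were also separate. The RNA-decay factor ZFP36 rose in both lines, by 2.29 in SW48 and 0.82 in 23132/87. Its relative ZFP36L1 moved in opposite directions, by -0.42 and 0.75. Among 21 integrins, laminins and their linkers, 7 terms were called positive and 1 negative (5 without 23132/87 myricone C replicate 2, 23132/87 vehicle replicate 2 or SW48 myricone C replicate 2). LAMB3, the beta chain of laminin 332, was at 46.8, 31.2 and 33.1 and then 125, 267 and 274 in SW48. It was at 30.7, 40.8 and 29.3 and then 50.4, 45.6 and 44.5 in 23132/87. The groups were also separate there, and the change was not called. The integrin activator FERMT1 was also called higher in SW48 only (1.46 ± 0.19). LAMB1, a chain of other laminins, was called lower in 23132/87 only (-0.93 ± 0.14).

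Receptor tyrosine kinases and the adaptors GRB7 and GRB10 had 4 positive and 1 negative called term among 16, and WNT pathway genes 5 positive and 3 negative among 17 (5 without 23132/87 myricone C replicate 2, SW48 myricone C replicate 2 or SW48 vehicle replicates 2 or 3). EPHB3, an ephrin receptor and WNT target, was at 16.1, 30.5 and 22.8 and then 4.63, 5.90 and 6.58 in 23132/87, and at 3.69, 4.79 and 4.37 and then 3.49, 2.76 and 3.17 in SW48. It was called in 23132/87 only, though the SW48 groups were also separate, with a term of 1.47 ± 0.27. MST1R, the receptor of macrophage-stimulating protein, changed by -0.91 ± 0.14 in 23132/87 and was at 0.33 ± 0.14 in SW48, not called. EGFR went the other way, at 0.63 ± 0.14 in 23132/87 and -0.18 ± 0.14 in SW48. BAMBI, a decoy receptor of the TGF-beta family, was an opposite responder, at 20.3, 23.9 and 17.1 and then 27.5, 42.6 and 45.1 in 23132/87, and at 451, 492 and 452 and then 328, 348 and 302 in SW48. ZNRF3, a ligase that removes WNT receptors, had a term of 1.13 ± 0.18, from a fall called in 23132/87 only.

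The ATF4 programme rose in both lines. Of 24 listed genes of the integrated stress response, 21 were called higher in 23132/87 and 23 in SW48, with medians of 1.59 and 1.82. The term was called for 4, all positive, or 16.7% (10 without SW48 myricone C replicate 1). ATF5, a transcription factor translated under this response, moved in opposite directions, from 22.7, 22.1 and 20.9 to 9.18, 11.2 and 13.5 in 23132/87 and from 40.9, 28.5 and 34.2 to 43.3, 62.5 and 74 in SW48, a term of 1.67 ± 0.26. ATF4 itself rose by 1.19 ± 0.14 in 23132/87 and 1.83 ± 0.14 in SW48, and its term of 0.64 ± 0.20 (adjusted p = 0.0448) lost its call without any 1 of 11 libraries, all but SW48 myricone C replicate 1 (0.50 to 0.84). The term was 0.37 after quantile normalization (adjusted p = 0.225). DDIT3, which encodes CHOP, was at 3.90, 7.08 and 4.26 and then 131, 100.5 and 92.3 in 23132/87, and at 9.52, 9.25 and 8.92 and then 127, 319 and 336 in SW48. Its term of 0.37 ± 0.40 was not called (95% interval -0.49 to 1.23, adjusted p = 0.586), but it was 0.82 and called without SW48 myricone C replicate 1, the library described above. Of 20 cytosolic aminoacyl-tRNA synthetases, 13 rose in 23132/87 and 12 in SW48, and no term was called (0 to 3 with each library left out).

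Amino acid transporters, many of them ATF4 targets, split instead. Of 12 listed, 3 terms were called positive and 2 negative (41.7%), and the same counts were found with each library left out. SLC1A5, a glutamine transporter, was at 76.7, 76.3 and 74.6 and then 170.5, 202 and 195 in 23132/87. SW48 libraries gave 418, 367 and 379 and then 367, 419 and 382, with overlap, and the term was -1.30 ± 0.14 (adjusted p = 0.000125). SLC7A1, a cationic amino acid transporter, rose in both lines but more in SW48, by 1.47 ± 0.13 against 0.37 ± 0.13. The neutral amino acid transporter SLC38A2 did likewise, by 1.61 ± 0.15 against 0.60 ± 0.15, and so did the glycine transporter SLC6A9 (2.76 and 1.77).

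Chaperones and folding enzymes of the ER leaned toward 23132/87. Of 23 listed, 18 were called higher in 23132/87 and 9 in SW48, and 1 and 3 were called lower. The medians were 0.56 and 0.11, 22 of 23 terms lay below 0, and 1 term was called positive and 5 negative. The negative median term kept its sign with quantile normalization (-0.47) and median-centred scaling (-0.29). HSPA5, the chaperone BiP, was at 239, 239 and 239.7 and then 1163, 776 and 707 in 23132/87, and at 324, 398 and 325 and then 796, 1444 and 1674 in SW48. Its term was -0.01 ± 0.32 (95% interval -0.69 to 0.68, adjusted p = 0.992), and 0.53 (adjusted p = 0.0402) when myricone C replicate 1 of both lines was left out, an alternative chosen after seeing the data. With single libraries left out it lay between -0.22 and 0.32, and after quantile normalization it was -0.37 (adjusted p = 0.561). Calreticulin (CALR), a lectin chaperone, was at 418, 389.8 and 337 and then 507, 458 and 454 in 23132/87, and at 484, 553 and 449 and then 336, 393 and 343 in SW48, opposite changes with a term of -0.78 ± 0.16. CRELD2, an ER stress-induced disulfide isomerase, was also opposite (0.53 and -0.43), and PDIA3, the partner isomerase of calreticulin, rose in 23132/87 only (0.52 ± 0.11). TXNDC11, a thioredoxin-domain protein of the ER, was the positive one, at -0.34 and 0.49. In ER-associated degradation 2 of 22 terms were called (9.09%), those of the lectin OS9 (-1.05 ± 0.14) and the channel component DERL2 (-1.0 ± 0.23), both negative.

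Lysosome genes had 7 negative and no positive called terms among 30 (4 without 23132/87 myricone C replicate 3, 23132/87 vehicle replicate 2 or SW48 vehicle replicate 2, and 11 without SW48 myricone C replicate 1), with a median term of -0.33. SCARB2, the lysosomal receptor that carries glucocerebrosidase, was at 70.5, 74 and 76.6 and then 101, 110.2 and 107 in 23132/87, and at 87.1, 122 and 89.3 and then 63.7, 49.5 and 56.6 in SW48. The groups did not overlap and the changes were opposite, for a term of -1.31 ± 0.18. TFE3, a transcription factor of lysosomal genes, and LAMP2, a membrane protein of lysosomes, rose in 23132/87 only (0.91 ± 0.11 and 0.65 ± 0.10). GAA, the lysosomal glucosidase, had a term of -0.86 ± 0.23, lost without any of 5 libraries: 23132/87 vehicle replicates 2 and 3, 23132/87 myricone C replicate 3, and replicate 2 of both SW48 groups (-1.05 to -0.74). Autophagy genes had 5 negative and no positive called terms among 32, all from rises called in 23132/87 only. Beside GABARAPL1, the initiating kinase ULK1 was at 6.19, 6.57 and 4.90 and then 15.9, 14.8 and 14.9 in 23132/87, and at 7.60, 8.22 and 7.19 and then 6.62, 5.95 and 7.63 in SW48 (term -1.41 ± 0.18). The autophagy receptors OPTN and CALCOCO1 had terms of -1.31 ± 0.23 and -1.32 ± 0.30.

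Genes of MHC class I antigen presentation had the lowest median term, -0.56, with 17 of 18 terms below 0. The medians were 0.26 in 23132/87 and -0.32 in SW48, and 4 terms were called, all negative, 2 of them CALR and PDIA3 from the ER list (2 without 23132/87 myricone C replicates 2 or 3, 23132/87 vehicle replicate 3, SW48 myricone C replicate 2 or SW48 vehicle replicates 2 or 3, and 8 without 23132/87 vehicle replicate 1). HLA-C, a class I heavy chain, had a term of -0.81 ± 0.24. Its call was lost without 9 of the 12 libraries taken singly, all but 23132/87 vehicle replicate 1 and myricone C replicate 1 and SW48 myricone C replicate 1 (-1.01 to -0.59), and its reads can be shared with other class I genes. Of 81 cytosolic ribosomal protein genes, 78 had a term below 0, but 4 were called (4.94%), 2 in each direction. The number called was 2 without 23132/87 vehicle replicate 2, SW48 myricone C replicate 2 or SW48 vehicle replicate 2, and 8 to 32 without 23132/87 myricone C replicate 1 or SW48 myricone C replicate 3. Its median term was -0.29. RPS26, the most positive, changed by -0.94 ± 0.09 in 23132/87 and -0.29 ± 0.09 in SW48, and RPS9 was called in SW48 only (-0.45 ± 0.12); both have processed pseudogenes. Among 241 genes named ZNF, most of them zinc finger factors, 4 terms were called positive and 23 negative (11.2%; 15 without SW48 vehicle replicate 2), with a median of -0.20. ZNF449 was at 2.94, 2.60 and 2.83 and then 12.6, 10.9 and 9.16 in 23132/87, and at 2.87, 4.17 and 3.69 and then 3.61, 3.39 and 4.72 in SW48, and ZNF431 rose in SW48 only (1.27 ± 0.16).

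Of 27 cholesterol genes 15 were called higher in 23132/87 and 14 in SW48, with 2 positive and 2 negative called terms (7 without SW48 myricone C replicate 1). LSS, the lanosterol synthase, was called higher in 23132/87 only (0.55 ± 0.15, against -0.37 ± 0.15). Among 16 fatty acid genes 3 terms were called positive and 1 negative (2 without 23132/87 myricone C replicates 1, 2 or 3, 23132/87 vehicle replicate 2, SW48 myricone C replicate 2 or SW48 vehicle replicate 3). SREBF1, which encodes the lipogenic factor SREBP1, was an opposite responder, at -0.58 ± 0.18 and 0.76 ± 0.18. The desaturase SCD was at 754, 569.9 and 688 and then 633, 721 and 729 in 23132/87, with overlap, and at 104, 113 and 92.1 and then 332, 261 and 222 in SW48, for a term of 1.32 ± 0.20.

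The pathway to which CYP1A1 belongs was mixed in direction. Of 9 listed genes of the aryl hydrocarbon receptor pathway 4 terms lay above 0 and 5 below, with a median of -0.20. The term was called for 4, 1 positive and 3 negative (2 without 23132/87 vehicle replicate 2). Beside CYP1A1, TIPARP (-0.76) and ARNT (-0.61) had called negative terms. The TIPARP call was lost without 23132/87 vehicle replicate 2, and the ARNT call without any of 8 libraries. NQO1, a quinone reductase that this receptor and NRF2 both induce, was called in SW48 only, from 179, 152 and 194 to 279.9, 249 and 300.5. In 23132/87 it was at 1954, 1999 and 2256 and then 1538, 1991 and 2049, with overlap, and the term was positive, at 0.82 ± 0.19. Among 22 NRF2 targets, 2 terms were called in each direction (2 without 23132/87 myricone C replicates 1 or 2, 23132/87 vehicle replicates 1 or 2 or SW48 vehicle replicate 2), with PIR, an iron-binding protein, higher in 23132/87 only (0.88 ± 0.13). The letters TNGCGTG, the core bound by the receptor, were in 2 of 7 promoters of this list (28.6%) and in promoters of 8.01% of all genes tested.

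At the other end, 608 genes were called in both lines in the same direction with a 95% interval of the term within ±0.5: 183 rose and 425 fell. With libraries left out singly this number was 372 to 533 (398 without 23132/87 vehicle replicate 1, 372 without vehicle replicate 2, 379 without myricone C replicate 2, 390 without SW48 vehicle replicate 3 and 404 without SW48 myricone C replicate 2). NEAT1, the long noncoding RNA of nuclear paraspeckles, was at 220, 173 and 172 and then 804, 728 and 752 in 23132/87, and at 541, 398 and 538 and then 1872, 2269 and 2023 in SW48. The treated libraries exceeded the vehicle libraries in both lines, and the term was 0.05 ± 0.19 (-0.36 to 0.46), or -0.31 after quantile normalization. SLC3A2, the heavy chain of amino acid exchangers, rose by 1.95 and 1.88 (term -0.06, or -0.37 after quantile normalization), and the alanyl-tRNA synthetase AARS1 by 1.46 and 1.60. Among the falls were PCLAF, a PCNA-binding factor (-1.79 and -1.81), STMN1, a microtubule destabiliser (-1.39 and -1.47), and BIRC5, which encodes survivin (-1.37 and -1.45). Their terms ranged from -0.09 to -0.02.

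In the 22 lists not described singly, 4.17% to 22.2% of the members had a called term (median 10.2%), and median terms ran from -0.38 to 0.35. Some of these counts moved with libraries left out singly. Positive calls ran from 0 to 4 in nucleotide synthesis (2 with all libraries) and from 2 to 9 in ribosome biogenesis (4 with all libraries). Of 4 called p53 targets 1 held every time, while the histone list kept its 1 negative call. The 22 lists included nucleotide synthesis, splicing factors, the proteasome, respiratory complex I, mitochondrial ribosomal proteins, p53 targets and pro-apoptotic genes. The highest share, 22.2% of 27, was that of mTORC1 and its brakes (3 without 23132/87 myricone C replicate 2, 23132/87 vehicle replicate 1 or SW48 myricone C replicate 2).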

How the data were processed

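Transcripts of 23132/87 and SW48 cells were measured by stranded mRNA sequencing. The tools FastQC and STAR (no versions) and the build GRCh38 appear in the submitters' processing notes. The authors deposited 1 table of expression signal per line; its unit, counting tool and annotation were not given in the sources used here, and the deposited signal resembles FPKM or TPM, so depth is unknown and no count test was run. All listed values are at least 1, so genes low in any library are missing.

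Values were transformed as log2(value + 1), where the pseudocount of 1 understates changes of low genes. limma 3.58.1 in R 4.3.3 was fitted to the 10264 shared genes in all 12 libraries with 4 group means and limma's trend on mean expression, and p-values were adjusted by Benjamini-Hochberg over all genes; every adjusted p comes from this fit. For 12 symbols the identifiers differ between tables, and none of these is named; some other genes are not reported here. The rule named the 4 largest terms in each direction, the 3 largest of each class (mean of at least 10), the 2 largest called members of each list described, and ROCK1, ROCK2, ATF4, DDIT3 and HSPA5. Members, lists and rule were chosen with earlier results of these data known; other list members, and the removal of PSMC3IP from the proteasome list, were chosen after their values were seen. The fit was tested on simulated data with normal noise, in which 200 of the 10264 genes were given a term. There it recovered 4.48% of terms of 0.5 in size, 52.2% of terms of 1 and 98.5% of terms of 2. In the data 1306 genes were called, and the adjusted p depends on how many genes differ. These rates therefore need not hold for the data. A term of 0.5 was thus mostly missed there, and a term that is not called does not show equal responses. Alternatives covered the pseudocount, filter, scaling, library weights, a fold threshold, a replicate block and each library left out. Promoters came from RefSeq (GRCh38.p14). Replicates are biological per the labels.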

Additional observations from a re-analysis of the deposited data

Results flagged for a closer look

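The effect of myricone C was compared between the lines under the same contrast, and the test of the difference itself was called for 1306 genes. Collected here are 80 genes with such a term that the naming rule gave, with the value of the term, the SW48 change minus the 23132/87 change on the log2(value + 1) scale. Other genes of the report with a called term, chosen outside the rule, have their values there. Groups held 3 libraries, and no test of a single outlying value was made. The values that set myricone C replicate 1 of each line apart are in the report.

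Keratins and lineage or surface genes had terms of KRT18 3.17, KRT8 2.67, CDX2 -1.45, CD24 2.13, CD99 -1.43, TMEM50B -1.44, IGFL2 2.36 and KLK6 2.17. For growth factor signalling, adhesion and their targets the terms were PHLDA1 3.01, PHLDA1-AS1 3.14, FOSL1 1.98, ERRFI1 1.65, PLAUR 2.40, LAMB3 2.01, FERMT1 1.93, CLCF1 2.50, MST1R 1.24, EPHB3 1.47, BAMBI -1.37, MDK -2.00, UNC5B -2.07, EPS8 -1.48, KLF4 -1.95 and GPRC5A 2.51.

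For replication, cell cycle and repair genes they were MCM6 1.73, MCM4 1.47, E2F1 1.51, CCNE1 1.58, CLSPN 1.16, EXO1 0.75, ECT2 0.65, CCNB2 -0.80, MND1 -0.63, BCL7C -0.74 and TDP2 -2.06. The EXO1 call was lost without 23132/87 vehicle replicate 1 or myricone C replicate 2, or SW48 vehicle replicate 2 (0.66 to 0.86). Chaperone and cytoskeleton genes had terms of HSPA8 1.58, HSPA1A 1.34, CCT2 0.79, CCT5 0.77, TUBG1 0.80, TUBA4A 0.71, ACTG1 1.17, TAGLN 1.10, ARHGEF1 1.06, ARHGEF2 0.76 and SNTB1 -1.76.

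Stress response, amino acid and ER genes had terms of ATF4 0.64, ATF5 1.67, DDIT4 2.56, NDRG1 2.83, BHLHE40 2.05, SLC1A4 -1.19, SLC1A5 -1.30, SLC25A36 -1.26, CRELD2 -0.97, CALR -0.78, TXNDC11 0.82, OS9 -1.05, DERL2 -1.0 and RBCK1 -1.37. In autophagy, the lysosome and antigen presentation they were GABARAPL1 -1.94, ULK1 -1.41, SCARB2 -1.31, GAA -0.86 and HLA-C -0.81. Lipid, xenobiotic and energy genes had terms of CYP1A1 -5.08, NQO1 0.82, PIR -0.76, INSIG1 1.70, SREBF1 1.34, SCD 1.32, PKM 1.11 and ENO2 0.91. The others were RPS9 -0.71, RPS26 0.64, RPL32P29 -1.81, ZNF449 -1.54, ZNF431 1.43, LINC03061 2.81 and MTMR11 -1.46.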

How the results depend on the processing

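The number of called differences (1306) was 812 with a stricter filter (at least 10 in 3 libraries), 2243 with library weights, 86 when terms were tested against a fold threshold of 0.5, and 830 to 1412 with libraries left out singly. Calls in 23132/87 (4762) were 3035 with the stricter filter, 844 with the fold threshold and 3875 to 4859 with libraries left out, and in SW48 (3597) they were 424 with the fold threshold and 2577 to 3777. Opposite genes (126) were 80 with the stricter filter, 224 with weights, 3 with the fold threshold and 76 to 143 with libraries left out. Genes of a single line (955) were 546, 1571, 71 and 621 to 1091 in that order. Genes of different degree (210) were 399 with weights, 2 with the fold threshold and 124 to 241 with libraries left out. Genes of the same degree (608) were 1107 with a pseudocount of 5, 947 with weights, 47 with the fold threshold and 372 to 533. Fewer genes are tested under the stricter filter and fewer samples remain with libraries left out; for the other settings the cause was not tested.

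Whether replicate numbers pair the samples was not settled. Deviations of vehicle and treated libraries with the same title number correlated at -0.258, 0.117 and -0.282 in 23132/87 and -0.067, -0.164 and -0.118 in SW48. SW48 libraries with the same column number correlated at 0.162 (vehicle replicate 2, myricone C replicate 1) and 0.271 (vehicle replicate 3, myricone C replicate 2). Deviations from means of 3 libraries cannot decide the pairing. With the replicate block 770 differences were called, 80 opposite, 574 in a single line, 110 of different degree and 329 of the same degree. Treated SW48 columns are numbered 2 to 4 where titles give 1 to 3. Under a block by column number, SW48 vehicle replicate 1 and myricone C replicate 3 have no partner. The SW48 change then rests on 2 pairs of libraries, so this setting also uses fewer SW48 libraries. It gave 944 called differences, 2338 calls in SW48, 95 genes of different degree and 162 of the same degree.

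The term of HSPA5 turned from -0.01 to 0.53 without myricone C replicate 1 of both lines, which was chosen after seeing the data. Of the 80 genes collected above, 46 lost the called term under the fold threshold, 7 under the replicate block, 11 under the block by column number, 3 after quantile normalization and 1 to 9 with each library left out. ATF4 lost it under both blocks (adjusted p = 0.0802 and 0.151), and without limma's trend (adjusted p = 0.0577). Read depth is unknown, so no limit of detection can be given.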

Other observations

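Of 306 long noncoding RNAs, 17 terms were called positive and 38 negative (18%), with a median of -0.27, against 12.8% and -0.08 for 9554 protein-coding genes. By chromosome the share called lay between 9.09% and 15.2%. By the longest protein-coding transcript in GENCODE, found for 93.5% of the genes, genes ranked by length and cut into 4 equal groups had median terms from -0.13 (shortest) to -0.04 (longest). Ranked by GC content, the groups had medians from -0.12 (lowest) to -0.01 (highest).

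Single genes outside the described lists had terms as large as theirs. UTP20, a ribosome biogenesis factor, was at -1.91 in 23132/87 and 0.08 in SW48. The transferrin receptor TFRC was at -1.51 and 0.17, and the interferon factor IRF1 at 1.46 and 0.23. These 3 were chosen after their values were seen.

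The lines did not draw nearer to each other as a whole. The distance between the mean log2 levels of the lines was smaller with myricone C than with vehicle for 48.1% of all genes, 47.2% of the 1306 with a called term and 46% of the 126 opposite responders. For the 25 genes with a larger rise in SW48 it was smaller for 18, with a median distance of 1.06 with vehicle and 0.33 with myricone C. For the 129 genes with a larger fall in 23132/87 it was smaller for 47 (36.4%), and the median distance went from 0.38 to 0.65. The 2 tables may have been normalized separately, and the distances share libraries with the terms, so no test was made.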
